A study of Mus musculus with 8 samples.

Results

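The genes described here encode the proteasome other than its inducible catalytic subunits, together with its activators, inhibitor and assembly chaperones. They are the protein-coding mouse genes whose symbols begin with Psma, Psmb, Psmc, Psmd, Psme, Psmf or Psmg, without Psmb8, Psmb9 and Psmb10. The annotation holds 48 such genes and the count tables hold 45 of them, among 12830 genes in all. Psma8, Psmb11 and Psme2b were not among the genes of the tables and are not analysed here. The 45 genes comprise 7 of the alpha ring, 7 of the beta ring, 6 regulatory particle ATPases, 14 genes with Psmd symbols (non-ATPase subunits and base chaperones), 4 activators, 1 inhibitor and 4 assembly chaperones. The symbols of the other 2, Psmc3ip and Psme3ip1, also match, although neither gene encodes a subunit.

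The proteasome degrades proteins tagged with ubiquitin and releases peptides, some of which are presented on MHC class I molecules. Its barrel-shaped core has outer alpha rings that gate entry and inner beta rings that carry the protease sites, and it is capped by a regulatory particle that binds, unfolds and feeds in substrates, or by ubiquitin-independent activators. In blood cells part of the core carries inducible catalytic subunits in place of the constitutive ones.

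RNA was sequenced from AML410, a mouse acute myeloid leukaemia of monosomal karyotype without p53. Its cells carry a short hairpin RNA against PU.1 linked to green fluorescent protein (GFP), and doxycycline (Dox) switches the hairpin off so that PU.1, the myeloid transcription factor encoded by Spi1, can return. GFP-positive cells were sorted from the bone marrow of leukaemic C57BL/6 recipients, with gates called GFPhigh-mid after 2 days on Dox, GFPmid after 4 days, GFPlow after 6 days and GFPhigh in untreated mice. Each of the 4 groups held 2 libraries. All carry the same leukaemia, hairpin and p53 loss, and no sample had Dox without the hairpin, so time on Dox, the drug, the gate and the return of PU.1 cannot be told apart. The titles call the libraries technical replicates and the design text speaks of duplicate mice, so the p-values reflect the scatter of these libraries alone, and that scatter may be technical.

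Libraries held 9262047 to 11213292 counts. Levels are CPM, counts divided by library size, after trimmed-mean (TMM) scaling, which takes most genes as unchanged, and "passed the test" means an adjusted p under 0.05 in edgeR's quasi-likelihood test over 12330 genes. Spi1 stood at 217 and 229 CPM at day 6, against 8.34 and 12.9 CPM in untreated cells. All 8 myeloid markers were in the tables, and they did not move together. At day 6 the granule genes Elane (2790 CPM at day 6, 8020 CPM untreated), Ctsg (545 CPM at day 6, 5230 CPM untreated) and Prtn3 fell. Itgam (1680 CPM at day 6, 29.8 CPM untreated), Csf1r (979 CPM at day 6, 35.7 CPM untreated), Ptprc and Cd33 rose, and Mpo did not pass. Of the markers of other cells, the 8 B cell genes summed to 8.35 to 112 CPM and the 5 erythroid genes in the tables to 2.33 to 60.4 CPM, the erythroid sum being highest in the day 6 libraries. The T cell markers Cd3d, Cd3e, Cd3g, Cd4 and Cd8a were not in the tables, and the 2 T and NK cell genes that were summed to 93.8 to 216 CPM. The 3 megakaryocyte genes in the tables summed to 32.7 to 68.2 CPM, and of the stroma and endothelium list Cxcl12 was at 0.648 to 2.47 CPM and Pecam1 at 106 to 215 CPM. Whether marker genes moved through other cells or within the sorted ones cannot be told apart here, and their part in the results was not tested. In day 2 replicate 1 a single gene took 13.3% of the counts, against 0.957 to 1.73% in the other libraries.

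Proteasome genes went in both directions on Dox, and their median change was smaller than that of all genes. All 45 passed the filter on low counts. At day 6 against untreated, 16 of them rose, 8 fell and 21 did not pass the test. The share called was 53.3%, against 63.6% of all genes, of which 32% rose and 31.6% fell. Their median absolute log2 fold change was 0.22, against 0.52 over all genes. The signed median was 0.08 with a range of −0.81 to 0.87, against a median of −0.04 over all genes, and 29 of the 45 stood above that all-gene median. In bulk RNA, fewer cells of a type and less RNA per cell cannot be told apart.

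The split of rises and falls rested on the scaling. The 45 genes together took 0.402% and 0.392% of the counts at day 6, against 0.506% and 0.479% in untreated cells, but summed to 4611 and 4618 CPM after TMM scaling at day 6, against 4420 and 4063 CPM in untreated cells. Scaling by total counts moved the median of all genes to −0.47, and with it 1 member (Psme2) rose and 24 fell at day 6. Relative to the median of all genes the members' median was 0.12 higher under either scaling. A change of scaling moves all genes by about the same amount, so this agreement was fixed in advance. Without untreated replicate 2 the members' median was 0.02 higher, with 23 of the 45 above the all-gene median. The untreated libraries also differed: without untreated replicate 2, which had the lowest summed level, 8 members rose and 10 fell. Without day 6 replicate 1 there were 8 up and 5 down, and without day 6 replicate 2 there were 8 up and 6 down. Of the 24 called genes, 6 passed in the same direction under each of 14 alternatives, namely Psme2, which rose, and Psmd5, Psmd7, Psmg1, Psmg2 and Psmc3ip, which fell.

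**Figure D1:**
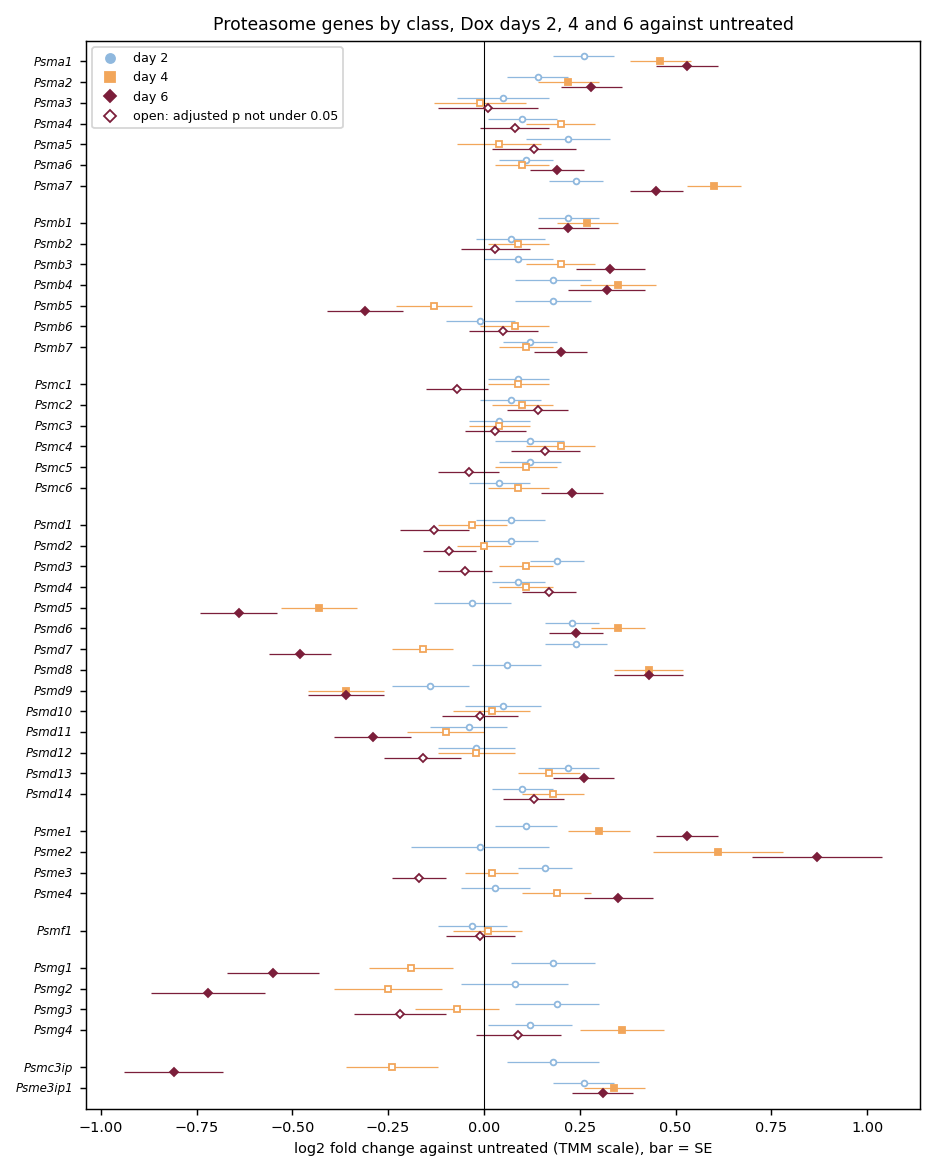
Log2 fold change of the 45 genes at days 2, 4 and 6 against untreated (x axis, TMM scale), grouped by class down the page, with bars of 1 standard error and filled symbols where the adjusted p was under 0.05. Day 2 values lie between −0.14 and 0.26 with none filled, and day 6 values reach 0.87 (Psme2) and −0.81 (Psmc3ip).

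Early on Dox the levels were close to untreated. At day 2 no member passed the edgeR test (6.13% of all genes did, 4.18% up and 1.95% down) and none passed in DESeq2, with 9 and 8 at an unadjusted p under 0.05. Log2 fold changes ran from −0.14 to 0.26, with 38 above 0 and 7 below, around a median of 0.10 against 0.00 over all genes. Without untreated replicate 1, 7 members rose at day 2. At day 4, 11 rose and 2 fell (28.9%, against 48% of all genes, 26.1% up and 22% down), with a median of 0.10 against −0.02. Without untreated replicate 2 the day 4 counts were 7 up and 3 down, and without day 4 replicate 2 they were 5 up and 1 down. Under scaling by total counts 1 rose (Psma7) and 8 fell at day 4. The 2 that fell at day 4 were Psmd5 and Psmd9, both chaperones of the regulatory particle's base, and both were also among those that fell at day 6.

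In the alpha ring 4 of 7 genes rose at day 6 and none fell (57.1% called, against 63.6% of all genes, 32% up and 31.6% down). The median was 0.19. Psma1 (chromosome 7, 114264550 to 114276116, mm10) stood at 148 and 132 CPM in untreated cells, 170 and 166.9 at day 2, 190 and 196 at day 4, and 199 and 207 at day 6. Every Dox library lay above both untreated libraries. The mean was 203 ± 5.71 CPM at day 6 against 140 ± 11.1 CPM in untreated cells (SD, n = 2 each), a log2 fold change of 0.53 (SE 0.08, edgeR adjusted p = 8.13e-05). Psma7, the most abundant member per unit length (chromosome 2, 180036367 to 180042464), stood at 226 and 206 CPM in untreated cells, 258 and 252 at day 2, 327 and 330 at day 4, and 301 and 289 at day 6. Its groups did not overlap, and the day 4 libraries were the highest, with log2 fold changes of 0.60 at day 4 (edgeR adjusted p = 3.72e-05) and 0.45 at day 6 (SE 0.07, edgeR adjusted p = 0.000216). Psma2 and Psma6 rose less, by 0.28 (edgeR adjusted p = 0.0109) and 0.19 (edgeR adjusted p = 0.0361). Psma3, the least changed, was at 16.9 and 16.6 CPM at day 6 and 17.7 and 15.6 CPM in untreated cells, so the groups overlapped. Psma4 and Psma5 did not pass either, at 0.08 and 0.13. Under scaling by total counts none of the 4 rises at day 6 held: Psma1 was at 0.10, Psma7 at 0.02, Psma2 at −0.16 and Psma6 at −0.24. The rise of Psma7 at day 4 still passed under that scaling, at 0.35.

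In the beta ring 4 of 7 genes rose at day 6 and 1 fell (71.4% called, against 63.6% of all genes), with a median of 0.20. The structural subunit genes Psmb3, Psmb4 and Psmb1 rose by 0.33, 0.32 and 0.22 on the log2 scale (edgeR adjusted p = 0.00955, 0.0137 and 0.0254), and Psmb2 did not pass (0.03). All 3 rises reversed under scaling by total counts (−0.10, −0.11 and −0.21), and none passed without untreated replicate 2. The 3 protease sites sit on Psmb5 (chymotrypsin-like), Psmb6 (caspase-like) and Psmb7 (trypsin-like). After TMM scaling Psmb5 fell, Psmb7 rose and Psmb6 did not pass at day 6. Under scaling by total counts all 3 log2 fold changes were negative (Psmb5 −0.75, Psmb6 −0.38 and Psmb7 −0.24).

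Psmb5 (chromosome 14, 54614120 to 54617995) was the beta ring gene that fell. It stood at 80.3 and 64.7 CPM in untreated cells, 80.5 and 83.9 at day 2, 65.6 and 67.3 at day 4, and 58.2 and 58.5 at day 6. The day 6 libraries lay below all the others, while the untreated pair was spread wide. The mean was 58.3 ± 0.177 CPM at day 6 against 72.5 ± 11 CPM in untreated cells (SD, n = 2 each), a log2 fold change of −0.31 (SE 0.10, edgeR adjusted p = 0.0172). That call was lost without untreated replicate 1 (−0.15), and without day 6 replicate 1 or 2 (−0.31 each). At day 4 Psmb5 stood below day 2 (−0.31, edgeR adjusted p = 0.0293), a call lost on leaving out either day 2 or either day 4 library. Day 4 did not pass against untreated (−0.13, edgeR adjusted p = 0.316). In the transcript annotation 54.1% of the 50-base stretches of Psmb5 also occur in other genes, mostly the predicted gene Gm3375, so its count is uncertain by how shared reads were assigned.

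Psmb7 rose by 0.20 (SE 0.07, edgeR adjusted p = 0.0284), with 128 CPM in both day 6 libraries against 115 and 109 CPM in untreated cells. It stood at 121 and 122 CPM at day 2 and 121 and 119 CPM at day 4. The call did not hold under 6 of the 14 alternatives, among them scaling by total counts (−0.24), DESeq2 and leaving out untreated replicate 2. Psmb6 was at 95.8 and 102 CPM at day 6 against 102 and 88.6 CPM in untreated cells, with 97.6 and 92 CPM at day 2 and 98.9 and 103 CPM at day 4. Its groups overlapped, and its log2 fold change of 0.05 at day 6 did not pass (edgeR adjusted p = 0.621).

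Each protease site has an inducible counterpart, Psmb8 for Psmb5, Psmb9 for Psmb6 and Psmb10 for Psmb7. These rose at day 6, by 0.49 for Psmb8 (edgeR adjusted p = 0.000928), 0.47 for Psmb10 (edgeR adjusted p = 0.000647) and 0.22 for Psmb9 (edgeR adjusted p = 0.038), though under scaling by total counts they were at 0.06, 0.03 and −0.21. A ratio of counts per kilobase within a library does not depend on the scaling. Psmb5 over Psmb8 was 0.480 and 0.486 in untreated cells, 0.467 and 0.469 at day 2, 0.292 and 0.299 at day 4, and 0.270 and 0.282 at day 6. The day 4 and day 6 libraries lay well below the earlier ones, and this contrast was larger than the spread within any group. Psmb7 over Psmb10 was 1.46 and 1.58 in untreated cells, 1.64 and 1.70 at day 2, 1.25 and 1.15 at day 4, and 1.32 and 1.20 at day 6. All 4 late libraries lay below the 4 early ones here too, by less. Psmb6 over Psmb9 was 0.512 and 0.516 in untreated cells, 0.464 and 0.411 at day 2, 0.435 and 0.423 at day 4, and 0.445 and 0.466 at day 6, so it was lower in every Dox library without a further drop from day 2 on. With 2 libraries against 2 the smallest p of a two-sided exact permutation test is 0.333, so these ratios are given without a test.

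**Figure D2:**
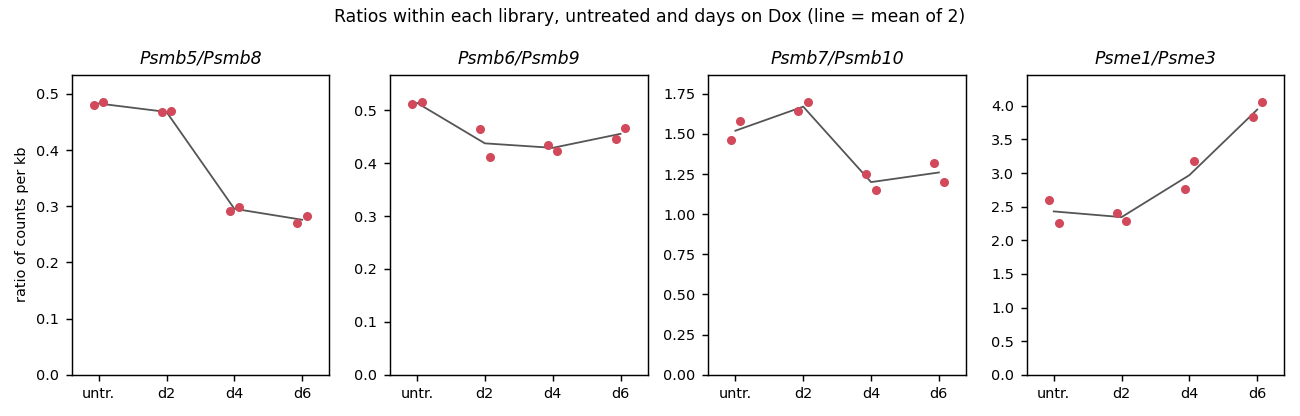
Ratio of counts per kilobase within each library (y axis, from 0) for 3 constitutive subunits over their inducible counterparts and for Psme1 over Psme3, in untreated cells and at days 2, 4 and 6 (x axis), with a point for each library and a line through the means. Psmb5 over Psmb8 drops between day 2 (0.467 and 0.469) and day 4 (0.292 and 0.299), and Psme1 over Psme3 is highest at day 6 (3.83 and 4.06).

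Promoter sequence was looked at for known proteasome gene elements, taking the 250 bases before each start in RefSeq's GRCm38.p6 annotation, which matched 38 of the 45 genes. The antioxidant response element core TGANNNNGC, which factors of the Nfe2l1 family bind, occurred on either strand in 16 of 38 members (42.1%) and in 38.7% of 27025 genes. The CCAAT box occurred in 14 members (36.8%) and in 37.5% of all genes. A PU box core, GAGGAAGT, searched after the values were seen, occurred in 3 members (7.89%) and in 2.79% of all genes. These 3 were Psma6, Psmc1 and Psmc2, with log2 fold changes of 0.19, −0.07 and 0.14 at day 6, of which only Psma6 passed the test. Its call was lost in DESeq2, with the replicate block and in the fit of the 2 groups only. In Psma6 the match lay before the second of 2 annotated starts, and the window of the first start held none. A match is a string of letters and does not show that a factor binds. The windows are printed for Psmb5, the catalytic gene that fell, Psme1, an activator gene that rose, and for the PU box carriers Psmc1 and Psmc2, each read 5′ to 3′ on its own strand with motif matches in capitals.
Psmb5, chr14:54617996-54618245, minus strand: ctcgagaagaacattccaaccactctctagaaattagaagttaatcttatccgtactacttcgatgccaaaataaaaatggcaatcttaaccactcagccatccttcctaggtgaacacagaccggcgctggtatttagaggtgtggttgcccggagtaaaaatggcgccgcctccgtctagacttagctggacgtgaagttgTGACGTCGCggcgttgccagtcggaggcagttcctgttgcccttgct
Psme1, chr14:55578244-55578493, plus strand: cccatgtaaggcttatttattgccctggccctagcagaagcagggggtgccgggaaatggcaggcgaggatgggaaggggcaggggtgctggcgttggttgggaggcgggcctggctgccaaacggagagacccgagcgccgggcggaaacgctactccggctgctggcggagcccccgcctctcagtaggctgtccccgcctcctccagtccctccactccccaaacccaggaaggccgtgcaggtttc
Psmc1, chr12:100109952-100110201, plus strand: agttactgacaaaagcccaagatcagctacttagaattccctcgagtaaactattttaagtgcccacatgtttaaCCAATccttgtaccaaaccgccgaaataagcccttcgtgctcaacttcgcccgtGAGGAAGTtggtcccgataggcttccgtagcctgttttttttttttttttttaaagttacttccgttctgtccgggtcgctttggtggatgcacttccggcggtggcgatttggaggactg
Psmc2, chr5:21785025-21785274, plus strand, 1 of 2 annotated starts: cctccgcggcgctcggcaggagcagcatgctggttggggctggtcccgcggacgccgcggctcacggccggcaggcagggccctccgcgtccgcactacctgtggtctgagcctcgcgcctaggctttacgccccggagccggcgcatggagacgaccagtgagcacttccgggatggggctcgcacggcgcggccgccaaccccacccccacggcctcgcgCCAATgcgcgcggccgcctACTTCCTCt
The capitals are TGACGTCGC at −47 in Psmb5, and CCAAT at −175 and GAGGAAGT at −121 in Psmc1. In Psmc2 they are CCAAT at −28 and ACTTCCTC, the reverse complement of GAGGAAGT, at −9. Positions are counted from the start to the first base of the match. The Psme1 window holds none of the 3 motifs.

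The 6 ATPase genes, Psmc1 to Psmc6, encode the ring that unfolds substrates, and they hardly moved. At day 6, 1 rose and none fell (16.7% called, against 63.6% of all genes), with a median of 0.09 and a range of −0.07 to 0.23. The riser was Psmc6, at 76.5 and 79.4 CPM at day 6 against 67.4 and 65.7 CPM in untreated cells (log2 fold change 0.23, SE 0.08, edgeR adjusted p = 0.0284). That call was lost under scaling by total counts (−0.21), in DESeq2, and without untreated replicate 2, day 6 replicate 1 or day 6 replicate 2. Psmc1 had the lowest value (−0.07, edgeR adjusted p = 0.477), with 76.6 and 73.9 CPM at day 6 and 81.7 and 75.9 CPM in untreated cells, which overlap. Psmc3 lies 22935 bases from Spi1 on chromosome 2. It stood at 206 and 179 CPM in untreated cells, 199 and 196 at day 2, 200 and 196 at day 4, and 195 and 199 at day 6. All its Dox libraries lay between the untreated pair, and the log2 fold change at day 6 was 0.03 (SE 0.08, edgeR adjusted p = 0.72), while Spi1 rose by 4.39 (edgeR adjusted p = 8.84e-10).

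The 14 Psmd genes went both ways: at day 6, 3 rose, 4 fell and 7 did not pass (50% called, against 63.6% of all genes). Their median was −0.07. Psmd8, a lid subunit (chromosome 7, 29174187 to 29180673), stood at 140 and 117 CPM in untreated cells, 137 and 132 at day 2, 164.2 and 182.5 at day 4, and 174 and 173 at day 6. The day 4 and day 6 libraries lay above the rest. The mean was 173 ± 0.902 CPM at day 6 against 128 ± 15.7 CPM in untreated cells (SD, n = 2 each; log2 fold change 0.43, SE 0.09, edgeR adjusted p = 0.00151), and scaling by total counts gave 0.00. The lid genes Psmd13 and Psmd6 rose by 0.26 (edgeR adjusted p = 0.0183) and 0.24 (edgeR adjusted p = 0.0134), and both reversed under scaling by total counts (−0.18 and −0.19).

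Psmd7 (chromosome 8, 107580380 to 107588482), the lid partner of the deubiquitinase Psmd14, was the lid gene with the largest fall. It stood at 120 and 125 CPM in untreated cells, 144 and 146 at day 2, 117 and 103 at day 4, and 90.1 and 85.6 at day 6. The day 2 libraries were the highest and the day 6 libraries the lowest, with no overlap between them and any other group. The mean was 87.8 ± 3.18 CPM at day 6 against 123 ± 3.27 CPM in untreated cells (SD, n = 2 each; log2 fold change −0.48, SE 0.08, edgeR adjusted p = 0.00029). Its value at day 2 did not pass (0.24, edgeR adjusted p = 0.1), but it fell between day 2 and day 4 (−0.40, edgeR adjusted p = 0.00221) and again between day 4 and day 6 (−0.33, edgeR adjusted p = 0.0112). The partner Psmd14 was at 104 and 110 CPM at day 6 against 104 and 92.1 CPM in untreated cells and did not pass (0.13). Psmd11, a scaffold of the lid, fell by 0.29 (edgeR adjusted p = 0.022), with 33.4 and 33.9 CPM at day 6 against 42.4 and 40.2 CPM in untreated cells. That call was lost in DESeq2 and without untreated replicate 1, day 6 replicate 1 or day 6 replicate 2.

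Of the 3 base chaperones with Psmd symbols, Psmd5 and Psmd9 fell and Psmd10 did not pass (−0.01). Psmd5 (chromosome 2, 34852087 to 34870965) stood at 89.5 and 98.5 CPM in untreated cells, 95.3 and 89.2 at day 2, 77.1 and 62.7 at day 4, and 60.9 and 59.4 at day 6. The late libraries lay below every early one. The mean was 60.2 ± 1.05 CPM at day 6 against 94 ± 6.39 CPM in untreated cells (SD, n = 2 each; log2 fold change −0.64, SE 0.10, edgeR adjusted p = 0.000198), and it was already down at day 4 (−0.43, edgeR adjusted p = 0.00441). Psmd9 was at 27.6 and 27.9 CPM at day 6 against 36.4 and 35.0 CPM in untreated cells (−0.36, edgeR adjusted p = 0.00867), lost in DESeq2 and without day 6 replicate 1. Of its 50-base stretches 24.9% occur in other annotated genes, against 0.385% of those of Psmd5. The large scaffold genes Psmd1 and Psmd2 and the ubiquitin receptor gene Psmd4 did not pass (−0.13, −0.09 and 0.17), nor did Psmd3 (−0.05) and Psmd12 (−0.16).

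**Figure D3:**
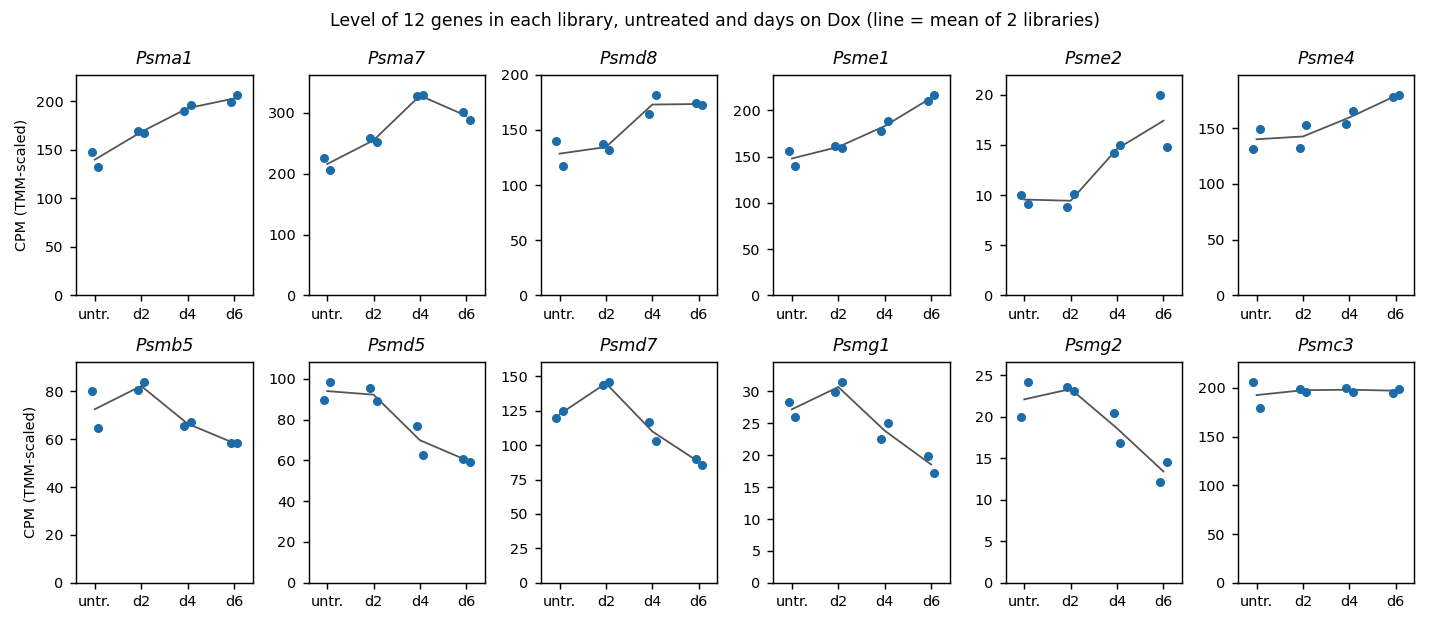
CPM after TMM scaling (y axis, from 0) of 12 genes in untreated cells and at days 2, 4 and 6 on Dox (x axis), with a point for each library and a line through the means. The upper genes are higher and Psmb5, Psmd5, Psmd7, Psmg1 and Psmg2 lower at day 6 than untreated. Psmc3 stays between 179 and 206 CPM. Scaling by total counts removes the day 6 calls of the upper genes other than Psme2.

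Among the activators 3 of 4 genes rose at day 6 and none fell (75% called, against 63.6% of all genes). Their median of 0.44 was the highest of any class with more than 2 genes. Psme1 and Psme2 encode the subunits of the interferon-inducible cap that opens the core gate, and lie 5912 bases apart on chromosome 14 (55578494 to 55581527 and 55587440 to 55591101). Psme1 stood at 156 and 140 CPM in untreated cells, 162 and 159 at day 2, 178 and 188 at day 4, and 210 and 217 at day 6. Each group lay above the one before it. The mean was 214 ± 5.18 CPM at day 6 against 148 ± 11.5 CPM in untreated cells (SD, n = 2 each; log2 fold change 0.53, SE 0.08, edgeR adjusted p = 9.51e-05). Total-count scaling gave 0.09. Psme2 stood at 9.96 and 9.14 CPM in untreated cells, 8.76 and 10.1 at day 2, 14.2 and 15 at day 4, and 20 and 14.8 at day 6. Its late libraries lay above the early ones, and the day 6 pair was spread wide. Its log2 fold change was 0.61 at day 4 (SE 0.17, edgeR adjusted p = 0.0108) and 0.87 at day 6 (SE 0.17, edgeR adjusted p = 0.000823), the largest rise among the 45, and 0.43 at day 6 under scaling by total counts. Of the 50-base stretches of Psme2, 28.3% occur in other genes, chiefly its copy Psme2b, so its low level is uncertain.

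Psme3 and Psme4 encode nuclear activators. Psme4 (chromosome 11, 30771775 to 30881150) stood at 131 and 149 CPM in untreated cells, 132 and 153 at day 2, 154 and 165.5 at day 4, and 178 and 180 at day 6, where it had risen by 0.35 (SE 0.09, edgeR adjusted p = 0.00562), or −0.08 under scaling by total counts. Its day 6 libraries were the highest. Psme3 stood at 161 and 166.4 CPM in untreated cells, 181.5 and 186 at day 2, 173 and 159 at day 4, and 147 and 144 at day 6. Its day 6 libraries lay below all others but missed the threshold (−0.17, SE 0.07, edgeR adjusted p = 0.0543), which they passed under scaling by total counts (−0.61). Psme1 over Psme3, counts per kilobase within a library and a pair chosen after the values were seen, was 2.60 and 2.26 in untreated cells, 2.40 and 2.29 at day 2, 2.76 and 3.18 at day 4, and 3.83 and 4.06 at day 6. The day 6 libraries lay above all others, whatever the scaling. The inhibitor gene Psmf1 did not pass (−0.01, edgeR adjusted p = 0.944), with 54.2 and 46.4 CPM in untreated cells, 48.1 and 50 at day 2, 50.4 and 50.6 at day 4, and 50.4 and 49.5 at day 6. Its untreated libraries enclosed all the others.

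Of the 4 assembly chaperone genes 2 fell at day 6 and none rose (50% called, against 63.6% of all genes), with a median of −0.39. Psmg1 and Psmg2 encode a pair of proteins that bind each other and help the alpha ring to form, and these were the 2 that fell. Psmg1 (chromosome 16, 95979933 to 95990960) stood at 28.4 and 26.0 CPM in untreated cells, 29.9 and 31.5 at day 2, 22.6 and 25.1 at day 4, and 19.9 and 17.2 at day 6. Its day 6 libraries lay below all others, with a mean of 18.6 ± 1.94 CPM against 27.2 ± 1.67 CPM in untreated cells (SD, n = 2 each; log2 fold change −0.55, SE 0.12, edgeR adjusted p = 0.00177). Psmg2 stood at 20 and 24.2 CPM in untreated cells, 23.6 and 23.1 at day 2, 20.4 and 16.8 at day 4, and 12.2 and 14.6 at day 6. It too was lowest at day 6, with 13.4 ± 1.72 CPM against 22.1 ± 2.99 CPM in untreated cells (SD, n = 2 each; log2 fold change −0.72, SE 0.15, edgeR adjusted p = 0.00137).

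Psmg3 and Psmg4, which encode the other chaperone pair, did not pass at day 6 (−0.22, edgeR adjusted p = 0.112, and 0.09, edgeR adjusted p = 0.529). Psmg3 stood at 21.0 and 20.7 CPM in untreated cells, 22.1 and 25.2 at day 2, 20.6 and 19.1 at day 4, and 17.9 and 17.8 at day 6, the day 6 libraries being the lowest. Psmg4 stood at 22.6 and 19.6 CPM in untreated cells, 22.9 in both day 2 libraries, 25.9 and 28.3 at day 4, and 22.4 in both day 6 libraries. It passed against untreated at day 4 (0.36, SE 0.11, edgeR adjusted p = 0.0193), but day 4 did not differ past the threshold from day 2 (0.24, edgeR adjusted p = 0.115), nor day 6 from day 4 (−0.27, edgeR adjusted p = 0.091). That call was lost under scaling by total counts (0.11), in DESeq2, in the fit of the 2 groups only, and without untreated replicate 2 or day 4 replicate 2.

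Psmc3ip, a partner of the meiotic recombinase named for its binding to an ATPase subunit, had the largest fall. It stood at 17.9 and 16.9 CPM in untreated cells, 19 and 20.4 at day 2, 15.2 and 14.2 at day 4, and 10.7 and 9.08 at day 6. The day 4 libraries lay below those of day 2 and the day 6 libraries below those of day 4, and the log2 fold change at day 6 was −0.81 (SE 0.13, edgeR adjusted p = 0.000262). Of its 50-base stretches 17.6% lie in the neighbouring gene Mlx, with which it may share reads. Psme3ip1, which encodes a protein that binds the Psme3 activator, was at 70.9 and 70.4 CPM at day 6 against 58.5 and 55.1 CPM in untreated cells (0.31, SE 0.08, edgeR adjusted p = 0.00376), or −0.12 under scaling by total counts.

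Between successive days few members changed. At day 4 against day 2, 3 rose (Psme2, Psma7 and Psmd8) and 5 fell (Psmc3ip, Psmd5, Psmd7, Psmg1 and Psmb5), 17.8% against 37.6% of all genes (21.7% up and 15.9% down). Psme2 led the rises at 0.62 (edgeR adjusted p = 0.0146) and Psmc3ip the falls at −0.42 (edgeR adjusted p = 0.0201). Leaving out day 2 replicate 2, day 4 replicate 1 or day 4 replicate 2 left 2 falls, and leaving out day 2 replicate 1 left 3. Without either untreated library 6 members rose, and without day 4 replicate 2 only 1 did. At day 6 against day 4, 1 rose (Psme1, 0.22, edgeR adjusted p = 0.0463) and 4 fell, 11.1% against 29.9% of all genes (15.9% up and 14% down). The falls were Psmc3ip (−0.57, edgeR adjusted p = 0.00925), Psmg2 (−0.48, edgeR adjusted p = 0.0378), Psmg1 (−0.36, edgeR adjusted p = 0.0437) and Psmd7. No fall passed without day 4 replicate 1 or without day 6 replicate 2, and 1 passed without day 6 replicate 1. The call of Psme1 lay near the threshold. It was lost on leaving out any day 2, day 4 or day 6 library, although day 2 is not part of this comparison. The replicate block and scaling by total counts (0.04) also lost it. On leaving out a library the log2 fold change of Psme1 was 0.18 to 0.27. These comparisons share libraries with those against untreated.

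Counts per kilobase of subunits that the complex holds in equal numbers were far from equal. Per kilobase of deposited gene length, Psma7 was the highest of the 45, at 335 ± 9.38 CPM per kb at day 6 and 245 ± 16.2 CPM per kb in untreated cells (SD, n = 2 each). Its fellow alpha ring gene Psma3 had 11.7 ± 0.122 CPM per kb at day 6 and 11.6 ± 1.04 CPM per kb in untreated cells. Psma5 was also low, with 20.2 ± 1.55 CPM per kb at day 6 and 18.4 ± 1.13 CPM per kb in untreated cells. For Psma3 and Psma5, 15.4% and 50% of 50-base stretches occur in other annotated genes, and how such reads were counted is not given in the sources used here. The stretches were pooled over all annotated transcripts of a gene (4133 for Psma3), so the share of the counted length can be larger. After Psma7 came Psmb4, at 241 ± 2.73 CPM per kb at day 6 and 194 ± 31.6 CPM per kb in untreated cells, and Psme1, at 219 ± 5.3 CPM per kb at day 6 and 152 ± 11.7 CPM per kb in untreated cells. In untreated cells the libraries of Psme1 (160 and 144 CPM per kb) overlapped those of Psma6 (153 and 141 CPM per kb), so their order is not set beyond the spread.

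The beta ring genes were closer together, from 67.0 ± 0.203 CPM per kb (Psmb5) to 241 CPM per kb (Psmb4) at day 6, and from 65.9 ± 7.66 CPM per kb (Psmb3) to 194 CPM per kb (Psmb4) in untreated cells. The ATPase genes ran from Psmc6 to Psmc3, with 49.8 and 121 CPM per kb at day 6 and 42.5 and 118 CPM per kb in untreated cells. At day 6 Psmc1 (50.1 ± 1.25 CPM per kb) overlapped Psmc6 (49.8 ± 1.34 CPM per kb), so the lowest place is not set beyond the spread. At the low end stood Psme2, with 17.8 ± 3.79 CPM per kb at day 6 and 9.78 ± 0.595 CPM per kb in untreated cells. Its partner Psme1 was far higher in every library, although the cap holds both proteins. Whether uncounted reads shared with Psme2b lowered the count of Psme2 was not tested. Psmd9, at 10.7 CPM per kb at day 6 and 13.8 CPM per kb in untreated cells, and Psmf1, at 14.1 CPM per kb at day 6 and 14.2 CPM per kb in untreated cells, were also among the lowest.

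**Figure D4:**
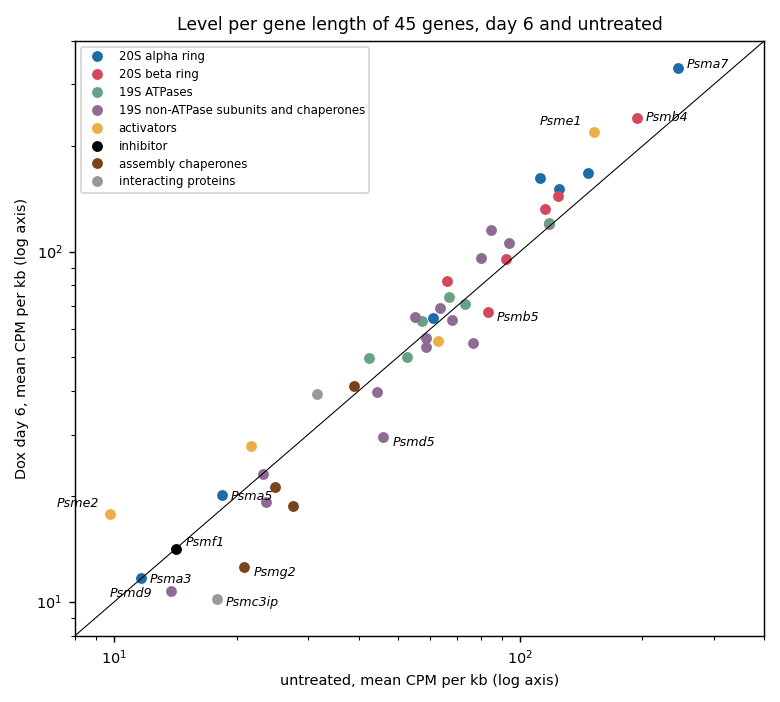
Mean CPM per kilobase of the 45 genes at day 6 (y axis) against untreated (x axis), both log axes, coloured by class, with the line of equality. Psma7 is the highest gene (335 at day 6, 245 untreated), and among the low genes Psme2 lies above the line (17.8 at day 6, 9.78 untreated) and Psmg2 below it (12.6 at day 6, 20.9 untreated).

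Genes around the proteasome also changed in part. Of 19 subunits, assembly factors and partner proteins with other symbols, 6 rose and 7 fell at day 6 (68.4%, near the 63.6% of all genes), with a median of −0.03 against −0.04 over all genes. Sem1, a small subunit of the lid, had 441 ± 0.457 CPM at day 6 against 235 ± 22.4 CPM in untreated cells (SD, n = 2 each; 0.91 on the log2 scale, edgeR adjusted p = 1.30e-06). Total-count scaling gave 0.48. Zfand2b, which binds proteasomes, rose by 0.87 (edgeR adjusted p = 3.64e-05), and the ubiquitin shuttle gene Ubqln4 fell by 0.73 (edgeR adjusted p = 1.89e-05). Under scaling by total counts Zfand2b was at 0.44 and Ubqln4 at −1.16, both still past the test.

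A list of 12 genes covered the Nfe2l1 pathway, through which cells raise proteasome genes, and other regulators such as Nfe2l2, Keap1, Stat3, Foxo4 and Nfya. At day 6, 7 rose and 2 fell (75%, against 63.6% of all genes, of which 32% rose and 31.6% fell). The median was 0.45 against −0.04 over all genes, but the listed genes differ in role, so it gives no direction for the pathway. Nfe2l1 itself did not pass, at 122 ± 0.110 CPM at day 6 against 109 ± 11.7 CPM in untreated cells (0.17, edgeR adjusted p = 0.0936). Bach1, a repressor that competes for the same element, rose by 1.44 (edgeR adjusted p = 1.65e-07), with 198 ± 7.86 CPM at day 6 against 73 ± 1 CPM in untreated cells. Ddi2, the protease that cleaves Nfe2l1, rose by 0.71 (edgeR adjusted p = 0.000491), and the transcription factor gene Stat3 by 0.70 (edgeR adjusted p = 4.22e-06), both at 0.27 and not past the test under scaling by total counts. Of 12 genes of the Vcp segregase, which pulls ubiquitinated proteins out of complexes, 3 cofactors rose (Faf1 0.42, Ubxn1 0.30 and Ubxn7 0.27) and none fell (25% called), and Vcp itself was at 0.02 (edgeR adjusted p = 0.874). All 3 cofactors reversed under scaling by total counts (−0.01, −0.13 and −0.17). Among genes of ubiquitin and its activation, the polyubiquitin gene Ubb rose by 0.45 (edgeR adjusted p = 0.000833), while Rps27a, which encodes ubiquitin fused to a ribosomal protein, fell by 0.43 (edgeR adjusted p = 0.00525). Total-count scaling put Ubb at 0.01, not past the test, and Rps27a at −0.87.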

How the data were processed

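RNA of 8 libraries was measured by sequencing. Per the file headers, each table the authors deposited lists Entrez gene IDs with a gene length and a whole-number count that was not normalized. Per the submitters' processing notes, featureCounts, CASAVA 1.8.2, limma 3.22.0 and edgeR 3.8.2 were used with mm10. Aligner, strandedness and treatment of shared reads: not given in the sources used here. The third highest CPM of every gene was at least 0.501, so low genes are not in the tables. Symbols and positions came from RefSeq GRCm38.p6 (12555 of 12830 genes matched), and transcripts for shared 50-base stretches from GENCODE. All transcripts of a gene were pooled for these stretches, so a share given here can understate that of the counted length.

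All 8 libraries entered 1 fit in R 4.3.3: filterByExpr (500 genes removed), TMM factors of 0.849 to 1.18, edgeR 4.0.16 quasi-likelihood test on a group means model, Benjamini-Hochberg adjustment over 12330 genes, threshold 0.05. The fitted common coefficient of variation between libraries was 8.34%, which may be technical, with 4 residual and 7.08 prior degrees of freedom. The script was tested on simulated data. Values are mean ± SD of 2 libraries, and CPM was divided by gene length to compare genes. Libraries of a group differed by more than sampling noise, so none was treated as a copy.

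Members and lists were chosen with earlier results of these data known. Named with every library's value are the catalytic subunits, activators, inhibitor, assembly chaperones and Psmc3ip. The highest and lowest change at day 6 in each class and members called against their class are also named. Some of these have the day 6 and untreated values only, or the fold change alone. From each list up to 3 called genes with the largest change are named. Psmc3 was added for its place near Spi1, and Psma7, Psmd7, Psmd9, Psmd11, Psmd14 and Psme3ip1 for their roles, after values were seen. Motif and length descriptions have no test. Protein sequence was not used here, and 1 result under this rule is not reported. Alternatives were scaling by total counts or size factors (RLE), no filter, DESeq2 1.42.0, a replicate block, the 2 groups alone, and each library left out.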

Additional observations from a re-analysis of the deposited data

How the results depend on the processing

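Scaling by total counts gave, for day 4 against untreated, 1 member up and 8 down; for day 6 against untreated, 1 up and 24 down; for day 4 against day 2, 1 up; and for day 6 against day 4, 0 up and 8 down. DESeq2 gave 1 down at day 4, 3 down at day 4 against day 2, and 1 down at day 6 against day 4. The 2 groups alone gave 232 genes at day 2 and 7 members down at day 6 against day 4. Without the filter, or with RLE size factors, no count of members moved by over 1.5 times.

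Leaving out each library gave ranges. Members up numbered 0 to 7 (day 2), 5 to 16 (day 4), 8 to 19 (day 6), 1 to 6 (day 4 against day 2) and 0 to 1 (day 6 against day 4). Members down numbered 1 to 3 (day 4), 5 to 10 (day 6), 2 to 5 (day 4 against day 2) and 0 to 5 (day 6 against day 4). Over all genes 325 to 1325 passed at day 2 and 1726 to 4193 at day 6 against day 4.

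Whether the replicate numbers pair the samples is not known. Deviations of same-numbered libraries from their group means correlated at −0.144 to 0.185. Such values cannot exclude a shared effect that is small beside the scatter of single libraries. The main fit used no pairing. With the replicate block 15 members rose and 8 fell at day 6, and 0 rose at day 6 against day 4.

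Named genes that changed sign under scaling by total counts were, at day 4, Psmb6 (−0.17), Psmb7 (−0.14), Psme3 (−0.23), Psme4 (−0.06), Psmf1 (−0.24), Psmb3 (−0.05), Psmb2 (−0.15), Psmc6 (−0.16), Psmc1 (−0.16), Psmd13 (−0.08), Psma2 (−0.03) and Psma6 (−0.15). At day 6 they were Psmb6 (−0.38), Psmb7 (−0.24), Psme4 (−0.08), Psmg4 (−0.35), Psme3ip1 (−0.12), Psma3 (−0.42), Psmb3 (−0.10), Psmb2 (−0.41), Psmc6 (−0.21), Psmd6 (−0.19), Psmd13 (−0.18), Psma2 (−0.16), Psmb1 (−0.21), Psmb4 (−0.11), Psma6 (−0.24), Faf1 (−0.01), Ubxn1 (−0.13), Ubxn7 (−0.17) and Psmb9 (−0.21). DESeq2 put Psmf1 at 0.01 at day 6. Leaving out a library turned the sign at day 4 of Psmb5 (−0.27 to 0.04), Psmb6 (−0.02 to 0.19), Psme3 (−0.04 to 0.07), Psmf1 (−0.10 to 0.13) and Psma3 (−0.10 to 0.09), and at day 6 of Psmb6 (−0.05 to 0.16), Psmf1 (−0.12 to 0.11), Psmg4 (−0.01 to 0.20), Psma3 (−0.08 to 0.11) and Psmb2 (−0.06 to 0.12). The cause was not tested beyond the change of the all-gene median that the scaling itself brings.

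Depth limits the low members most: Psme2 rests on 76 to 178 counts per library.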
